A study of Mus musculus with 20 samples.

Results

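The interaction between Aroclor 1260 and PCB 126 was measured in the liver transcriptome as the amount by which the effect of one exposure changed when the other was present. It was computed for each gene as the log2 difference between the combined exposure and PCB 126 alone, minus the log2 difference between Aroclor 1260 alone and the control. A value of 0 means that the effects added on the log2 scale, a negative value that the combined exposure gave less than that sum, and a positive value that it gave more. Of the 21780 genes of the count table, the 15522 whose counts summed to 10 or more across the 20 libraries were tested.

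All mice were male C57Bl/6J mice that were 8 weeks old when they were placed on a high-fat diet (HFD) with 42% of calories from fat. The 4 groups of 5 mice were HFD control, HFD + Aroclor 1260 (20 mg/kg), HFD + PCB 126 (20 µg/kg) and HFD + Aroclor 1260 + PCB 126 at the same doses. Per the study's methods the mice were on this diet for 12 weeks in all. The PCBs were given by a single oral gavage in corn oil after 2 weeks of diet, and the control received corn oil. Exposure to the PCBs lasted 10 weeks per the methods, whereas the sample labels give 12 weeks of treatment. Each group held 1 dose of each agent and no group was fed another diet, so that the interaction was measured at 1 dose pair on HFD only.

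Aroclor 1260 is a commercial mixture made up mostly of non-dioxin-like polychlorinated biphenyls (PCBs). Such congeners are known to raise hepatic Cyp2b and Cyp3a transcripts through the constitutive androstane receptor (CAR) and the pregnane X receptor (PXR). PCB 126 is a dioxin-like congener that binds the aryl hydrocarbon receptor (AhR), which then pairs with ARNT on DNA that holds a core GCGTG and raises transcripts such as Cyp1a1 and Cyp1a2. In mixtures, non-dioxin-like PCBs have been studied both as partial antagonists of AhR ligands and as agents that act beside them. The 2 by 2 design addresses whether the liver response to both agents together differed from the sum of the single responses.

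The regions just upstream of the 3 AhR target genes with the largest evidence of interaction are shown for reference. They are the 300 bases from 250 before to 50 after the gene start in the RefSeq annotation of GRCm38.p6, with each GCGTG, or CACGC on the other strand, in capitals. The Cyp1a1 window lies at chr9:57697363-57697662 on the plus strand, the Cyp1a2 window at chr9:57683606-57683905 on the minus strand, and the Slc46a3 window at chr5:147894766-147895065 on the minus strand.
Cyp1a1: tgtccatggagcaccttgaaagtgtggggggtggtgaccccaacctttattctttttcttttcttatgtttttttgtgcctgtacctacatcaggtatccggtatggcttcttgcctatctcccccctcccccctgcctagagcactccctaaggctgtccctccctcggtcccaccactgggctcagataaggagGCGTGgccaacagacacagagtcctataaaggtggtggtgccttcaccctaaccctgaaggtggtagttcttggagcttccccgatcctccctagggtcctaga
Cyp1a2: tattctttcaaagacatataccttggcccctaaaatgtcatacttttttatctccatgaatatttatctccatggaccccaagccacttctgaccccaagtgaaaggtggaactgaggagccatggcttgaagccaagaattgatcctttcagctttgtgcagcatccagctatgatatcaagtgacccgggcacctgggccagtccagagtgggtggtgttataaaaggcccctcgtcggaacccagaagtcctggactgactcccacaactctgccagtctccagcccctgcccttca
Slc46a3: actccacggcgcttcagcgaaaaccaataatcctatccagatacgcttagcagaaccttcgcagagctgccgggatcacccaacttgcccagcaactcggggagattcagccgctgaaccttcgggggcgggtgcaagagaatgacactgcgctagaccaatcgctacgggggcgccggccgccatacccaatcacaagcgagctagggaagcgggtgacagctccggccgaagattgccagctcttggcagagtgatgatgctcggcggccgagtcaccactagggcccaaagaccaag
The letters occurred 1 time in the Cyp1a1 window, starting 54 bases before the gene start, and not in the Cyp1a2 or Slc46a3 windows. Of the 12 AhR targets on the list used here, 10 had a window in the table, and the letters were found in 5 of these (Cyp1a1, Cyp1b1, Tiparp, Ahrr and Gsta1). On either strand they occurred in 32.4% of all 32851 windows of this length. The RefSeq starts of Cyp1a1 and Cyp1a2, which are transcribed away from each other, lie 13.96 kb apart. The Cyp1a1 gene span given below, from GENCODE, begins upstream of the RefSeq start, with another transcript.

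The total count per library was 21836506 to 36854887 reads. It was 31265022 to 35611837 with Aroclor 1260 and 23471120 to 29366462 with both agents, without overlap. The HFD control and PCB 126 groups overlapped both of these ranges. The defining markers of hepatocytes (Alb, Apoa1, Apob, Ttr, Serpina1a, Cyp2e1, Asgr1 and Hnf4a) were all tested, and their summed level was 90016 to 126781 CPM over the 20 libraries, CPM being the count relative to the TMM-scaled depth of the library. Groups or libraries stood apart by several measures. One was the slope of log2 CPM on transcript GC content, which was 0.26 ± 0.19 per 10 percentage points (SD, n = 5) in HFD control, 0.0093 ± 0.092 with Aroclor 1260, 0.12 ± 0.21 with PCB 126 and -0.39 ± 0.21 with both. The slope was lower with Aroclor 1260 than without it, by 0.25 in the absence of PCB 126 (exact permutation test, two-sided, p = 0.0238) and by 0.51 in its presence (exact permutation test, two-sided, p = 0.00794, the smallest that splits of 5 against 5 can give). The Aroclor 1260 effect on the GC slope with PCB 126 minus that without it was -0.26 (SE 0.16). The slope of log2 CPM on transcript length per doubling was 0.046 to 0.15 with both agents and -0.15 to 0.043 with PCB 126 alone. These ranges did not overlap (exact permutation test, two-sided, p = 0.00794). In the absence of PCB 126, Aroclor 1260 changed the length slope by 0.082 (exact permutation test, two-sided, p = 0.127). The difference of differences of the length slope was 0.050 (SE 0.062). Another was the level of adrenal transcripts in 2 libraries.

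HFD control replicate 4 and HFD + Aroclor 1260 + PCB 126 replicate 4 held transcripts of the adrenal gland that were nearly absent from the other 18 libraries. Star, which carries cholesterol into mitochondria for steroid synthesis, was at 601 CPM in the control library, 669 CPM in the combined-exposure library and 0.799 to 1.99 CPM in the other 18. Cyp11a1, which makes the first cut of the cholesterol side chain, was at 324 and 159 CPM in these libraries and at 0 to 0.176 CPM in the others. Chgb, a granule protein of chromaffin cells, was at 682 and 248 CPM against 0 to 0.246 CPM. Of 10 adrenal cortex genes, 9 were higher in both libraries than in any of the other 18, and so were 10 of 10 chromaffin cell genes. The 10 cortex genes summed to 2319 and 1987 CPM in these libraries and to 33.7 to 65.7 CPM in the others, a level held by Mrap, which liver also expresses. Both lists were chosen after the values were seen. These libraries also had the lowest GC slope of their groups, 0.0040 and -0.67. As one is a control and the other a combined exposure, a transcript found in both enters the interaction with a positive sign, so values for the 18 other libraries are given beside the main results below. What brought these transcripts into the libraries was not tested.

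**Figure D1:**
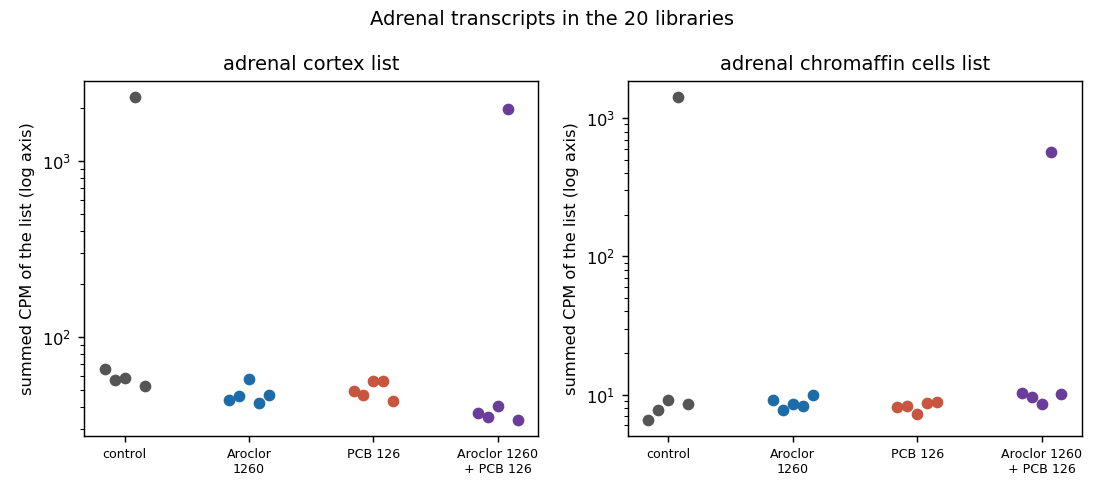
Summed CPM (log axis) of 10 adrenal cortex genes (left) and 10 adrenal chromaffin cell genes (right) in each of the 20 libraries, 1 point per mouse, by exposure group. One control library (2319 and 1418 CPM) and 1 combined-exposure library (1987 and 573 CPM) lie far above the other 18, which reach 65.7 and 10.3 CPM at most.

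No gene passed an adjusted p of 0.05 for the interaction in edgeR's quasi-likelihood test (0 of 15522, 0%; lowest adjusted p = 0.284). An unadjusted p under 0.05 was found for 1846 genes, 11.9% of those tested, of which 1088 (7.01%) had a positive and 758 (4.88%) a negative value. Without the 2 libraries with adrenal transcripts, the test of 15116 genes again called 0 (0%; lowest adjusted p = 0.999), and an unadjusted p under 0.05 was found for 644 genes (4.26%), 240 of them positive (1.59%) and 404 negative (2.67%). DESeq2 called 1 gene, Cyp1a1, with 1546 genes at an unadjusted p under 0.05, and limma voom called 0, with 1358. DESeq2 gave no adjusted p to 265 of the 15522 genes, which it could therefore not call. The share of positive values among genes at an unadjusted p under 0.05 thus turned from 58.9% over 20 libraries to 37.3% over 18.

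The size of interaction that this design could have missed was set by the error of each gene. For the 11342 genes with a mean of at least 1 CPM, the median standard error of the interaction was 0.21 log2 units and the median half-width of the 95% interval was 0.44. The whole interval lay within a doubling and a halving (±1 log2 unit) for 9033 of these genes (79.6%) and within ±0.5 for 3358 (29.6%). Over the 18 libraries these numbers were 9662 (85.3%) and 3924 (34.6%) of 11326. An interaction larger than 2-fold was therefore outside the interval for most expressed genes, whereas smaller ones were not detectable at this number of mice for many of them.

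The calls for the simple contrasts differed widely without a called interaction. Aroclor 1260 changed 0 genes (0%) in the absence of PCB 126, with 2677 at an unadjusted p under 0.05, and 2589 genes (16.7%) in its presence. The latter fell to 1461 without the 2 libraries and to 0 after correction for GC content (lowest adjusted p = 0.0538, edgeR's quasi-likelihood test). It was 81 after correction for GC content and length, against 0 in the absence of PCB 126. With GC correction and a term for replicate number it was 207, against 19. PCB 126 changed 18 genes (0.116%) in the absence of Aroclor 1260 and 64 (0.412%) in its presence, with 11 and 0 over the 18 libraries. With GC correction the order turned, to 50 and 6. These counts moved with single libraries, as leaving out 1 at a time gave 4 to 127 genes without Aroclor 1260, the extremes without PCB 126 replicates 2 and 3, and 0 to 1036 with it, the highest without combined-exposure replicate 3. The 2589 genes of Aroclor 1260 in the presence of PCB 126 fell to 4 without PCB 126 replicate 3, 288 without PCB 126 replicate 4, and 269 and 954 without combined-exposure replicates 5 and 4. The combined exposure changed 5089 genes (32.8%) against HFD control, 1446 with GC correction, 4595 over the 18 libraries and 712 with both. A call in one stratum and not in the other is not a difference between strata, for which the interaction is the test.

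The effect of PCB 126 without Aroclor 1260 and its effect with Aroclor 1260 come from different mice and could be set side by side. All 18 genes called for PCB 126 in the absence of Aroclor 1260 had the same direction in its presence, and 18 of 18 had a smaller effect there. Their median absolute effect was 1.01 log2 units without and 0.46 with Aroclor 1260. The reverse held for the 64 genes called in the presence of Aroclor 1260, of which 61 had a smaller or opposite effect in its absence (median 0.68 against 0.26). Genes chosen for a large effect in one set of mice tend to show a smaller one in another, so neither count describes antagonism by itself. Across the 11342 genes of at least 1 CPM, which are not independent replicates, Pearson's r of the PCB 126 effect between strata was -0.59 over 20 libraries and 0.49 over 18, and Spearman's rho was 0.39 and 0.58. The effect of Aroclor 1260 gave r = -0.41 and 0.65 for the same sets, and rho = 0.59 and 0.72. With GC correction over the 20 libraries, rho was 0.205 for PCB 126 and 0.37 for Aroclor 1260, with r of -0.72 and -0.63.

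**Figure D2:**
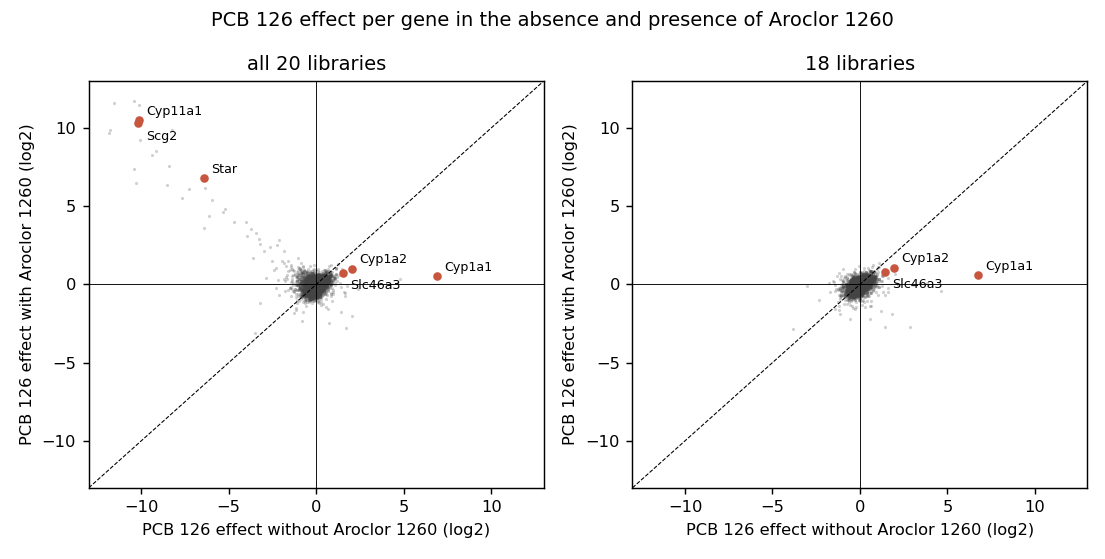
Effect of PCB 126 (log2) in the absence (x axis) against the presence (y axis) of Aroclor 1260, 1 point per gene of at least 1 CPM, over all 20 libraries (left) and without the 2 libraries with adrenal transcripts (right); the dashed line marks equal effects. The adrenal transcripts form the arm at the upper left (Star at -6.40 and 6.78), which is missing on the right, and Cyp1a1 lies far below the line in both panels.

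Of the AhR targets, Cyp1a1, Cyp1a2 and Slc46a3 had negative interactions at an unadjusted p under 0.05. Cyp1a1, which encodes the AhR-inducible cytochrome P450 that oxidizes polycyclic aromatic hydrocarbons (chr9:57687928-57703824, plus strand), was at 0.940, 0.799, 0.458, 0.219 and 0.645 CPM in HFD control replicates 1 to 5. With Aroclor 1260 it was at 0.898, 1.23, 0.838, 0.737 and 0.922 CPM. With PCB 126 alone it was at 4.09, 7.80, 4.60, 314 and 62.1 CPM, and with both at 0.792, 1.19, 0.875, 1.13 and 2.62 CPM. All 5 mice given PCB 126 alone were thus above all 15 other mice, and 2 of them lay far above the other 3, whereas the mice given both overlapped the control and Aroclor 1260 groups.

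The interaction of Cyp1a1 was -6.40 log2 units (SE 1.45, 95% interval -9.42 to -3.37, adjusted p = 0.284), and -6.19 over the 18 libraries (SE 1.66). The PCB 126 effect was 6.93 log2 units in the absence of Aroclor 1260 (SE 1.08, adjusted p = 0.0095) and 0.53 in its presence (adjusted p = 0.782). DESeq2 called the interaction (-6.51, adjusted p = 0.00207). The voom fit did not (adjusted p = 0.575). Leaving out 1 library at a time gave -6.82 to -4.42, the smallest without PCB 126 replicate 4, the mouse at 314 CPM. On log2 CPM, the combined exposure was lower than PCB 126 alone (exact permutation test, two-sided, p = 0.00794, not adjusted), and each of the 5 values lay below the lowest of the other group.

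Cyp1a2, a hepatocyte cytochrome P450 induced by the same receptor (chr9:57676937-57683703, minus strand), followed at a much higher level. It was at 356, 437, 517, 249 and 374 CPM in the HFD control mice, and with Aroclor 1260 it was at 492, 400, 279, 385 and 367 CPM. With PCB 126 alone it was at 1120, 1127, 1495, 2601 and 1608 CPM, and with both at 992, 856, 537, 632 and 858 CPM. The group means rose 4.11-fold with PCB 126 alone and 2.01-fold with PCB 126 in the presence of Aroclor 1260. All mice given both lay above every mouse without PCB 126 and below every mouse given PCB 126 alone.

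The interaction of Cyp1a2 was -1.03 log2 units (SE 0.32, 95% interval -1.70 to -0.35, adjusted p = 0.287). It was -0.86 over the 18 libraries (SE 0.33) and -0.96 with GC correction (SE 0.33). Aroclor 1260 lowered Cyp1a2 in the presence of PCB 126 by 1.04 log2 units in the fit (adjusted p = 0.0144), while in its absence the difference was -0.01 (adjusted p = 0.988). The difference of differences of the group means was -813 CPM, so that the sum was not reached on the linear scale either.

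Slc46a3, a lysosomal transporter regulated by AhR in mouse liver (chr5:147878437-147894815, minus strand), was the third such gene. It was at 35.5, 37.0, 39.5, 18.9 and 30.4 CPM in the HFD control mice, and with Aroclor 1260 it was at 56.3, 47.9, 36.5, 45.5 and 34.7 CPM. With PCB 126 alone it was at 91.3, 86.4, 74.1, 122 and 95.1 CPM, and with both at 80.1, 83.0, 65.7, 58.4 and 82.2 CPM. The mice given PCB 126, alone or with Aroclor 1260, were all above every mouse without it, and these 2 groups overlapped each other. The interaction was -0.80 log2 units (SE 0.25, 95% interval -1.32 to -0.27, adjusted p = 0.287) and -0.60 over the 18 libraries (SE 0.21), where the low control value of replicate 4 (18.9 CPM) was absent.

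**Figure D3:**
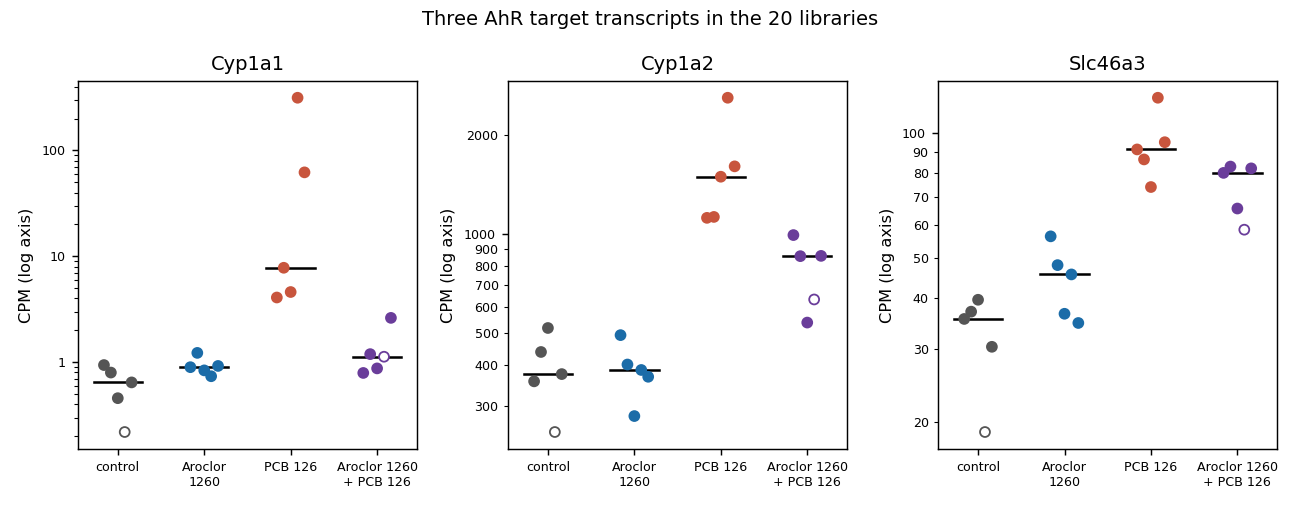
CPM (log axis) of Cyp1a1, Cyp1a2 and Slc46a3 in each of the 20 libraries by exposure group, 1 point per mouse, with the group median as a bar; open symbols mark the 2 libraries with adrenal transcripts. PCB 126 alone gave the highest values of each gene, and the mice given both agents lay at 0.792 to 2.62, 537 to 992 and 58.4 to 83.0 CPM.

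The other 9 AhR targets gave no such value. Of the 12 members, all tested, 0 were called, 3 had an unadjusted p under 0.05, all negative, and 0 positive, against 4.88% and 7.01% of all genes. The median interaction of the list was 0.16, and -0.04 over the 18 libraries, beside 0.00 and -0.03 for all genes tested. Fmo2, a flavin monooxygenase, was raised by the combined exposure by 1.42 log2 units (adjusted p = 0.000582), with an interaction of 0.31 (SE 0.31) and 0.27 over the 18 libraries. Ugt1a6a, a glucuronosyltransferase, was raised by the combined exposure by 0.60 (adjusted p = 0.0168) with an interaction of 0.18 (SE 0.26) and 0.29 over the 18 libraries. For Tiparp, an AhR target that limits the receptor, the interaction was -0.13 (SE 0.52, 95% interval -1.21 to 0.94), and for Nqo1, a quinone reductase, -0.05 (SE 0.34, 95% interval -0.76 to 0.66). Over the 18 libraries these were -0.16 and 0.073. Cyp1b1 changed sign with the libraries used, from 1.78 (SE 0.86) to -0.19, with its highest values of 4.39 and 6.84 CPM in the 2 libraries with adrenal transcripts. Ahrr, the AhR repressor, was under 1 CPM in every library, and its interaction was 0.19 (SE 0.86) and -0.999 over the 18 libraries. Gsta1 gave 0.13 (SE 0.93) and Aldh3a1, at a mean of 0.0250 CPM, 0.24 (SE 1.33).

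None of the 5 genes of the receptor complex was called or had an unadjusted p under 0.05. The interaction was 0.02 for Ahr (SE 0.38), 0.11 for its partner Arnt (SE 0.16, 95% interval -0.23 to 0.45) and -0.13 for the chaperone Hsp90ab1 (SE 0.23). Over the 18 libraries the values were 0.043, 0.071 and -0.22. Arnt was raised by the combined exposure by 0.66 log2 units (adjusted p = 0.0010), and its group means were 31.3 CPM in HFD control, 35.0 with Aroclor 1260, 40.9 with PCB 126 and 49.4 with both.

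Of the targets of CAR and PXR, none departed from the sum by the test. Of 15 members tested, 0 were called and 0 had an unadjusted p under 0.05, and the median interaction was 0.03 (0.07 over the 18 libraries). Under the combined exposure 6 of the 15 were called higher than HFD control and 0 lower, against 15.8% and 17% of all genes. Cyp3a11, the main hepatic P450 of the PXR response, was at 2577 ± 645 CPM (SD, n = 5) in HFD control, 3284 ± 1179 with Aroclor 1260, 2713 ± 524 with PCB 126 and 4763 ± 1007 with both. Its interaction was 0.46 (SE 0.32, 95% interval -0.21 to 1.14), and 0.48 over the 18 libraries. Cyp2b10, the classical CAR target, had group means of 3.54 ± 2.84, 13.97 ± 10.7, 5.38 ± 3.898 and 11.7 ± 8.98 CPM (SD, n = 5) in the same order. With an interaction of -0.84 and a 95% interval of -2.98 to 1.30, neither a 2-fold loss nor a 2-fold gain of the Aroclor 1260 effect was outside the error. It was -1.10 (SE 0.96) over the 18 libraries. Cyp2c55 (0.50, 95% interval -0.97 to 1.96) and Gstm3 (-0.40, 95% interval -2.16 to 1.37) were as imprecise. Genes of the Cyp2b, Cyp3a, Gsta and Gstm families have near-identical copies between which reads may have been split, so their values are uncertain. Among the receptors and partners, Rxra, which pairs with CAR and PXR, gave -0.46 (SE 0.21, adjusted p = 0.408) and -0.28 over the 18 libraries, and Egfr gave 0.68 (SE 0.74).

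**Figure D4:**
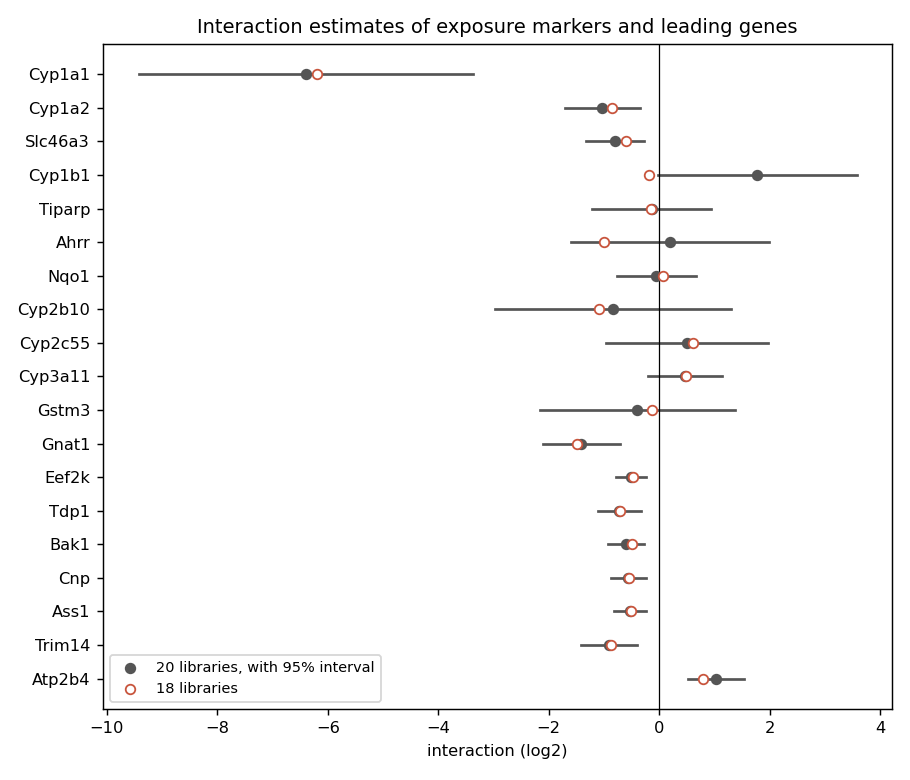
Interaction (log2) of exposure markers and of leading genes of at least 1 CPM, with its 95% interval, over 20 libraries (filled points) and without the 2 libraries with adrenal transcripts (open points). Cyp1a1 lies at -6.40 and -6.19, the intervals of Cyp1a2, Slc46a3 and the 8 leading genes below Gstm3 leave out 0, and Cyp1b1, Ahrr and Nqo1 change sign between the sets.

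The 8 genes of at least 1 CPM with the smallest p and a positive interaction were Scg2, Cyp11a1, Star, Hao2, Prss35, Mgarp, Npy and Atp2b4. All 8 were highest in the 2 libraries with adrenal transcripts, 7 of them by a wide margin and Atp2b4 by a small one. None passed the adjusted threshold. Scg2, a granule protein of endocrine cells, was at 258 CPM in HFD control replicate 4, 175 CPM in the combined-exposure replicate 4 and at most 0.0895 CPM elsewhere. Npy, a peptide of chromaffin cells and neurons, was at 74.7 and 18.4 CPM and at most 0.0819 CPM elsewhere. Hao2 (18.4 and 24.6 CPM), Prss35 (30.05 and 26.4 CPM) and Mgarp (31.7 and 19.0 CPM) had the same pattern. Of the 100 leading positive genes, 58 were higher in both of these libraries than in any other, of the 100 leading negative genes 0, and of all 11342 genes of at least 1 CPM 400. Such genes enter the interaction with a positive sign, so the 0 among negative genes was largely set in advance. Fitted values for the 7 genes other than Atp2b4 rest on low counts in 2 groups and are not given as folds. Over the 18 libraries, Star gave -0.14 (SE 0.38), Scg2 -0.03 (SE 1.52) and Cyp11a1 -3.74 (SE 1.90), the last on at most 0.176 CPM.

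Atp2b4, which encodes a plasma membrane calcium pump (chr1:133699457-133801041, minus strand), was expressed in every library. Its 2 highest values, 7.63 and 9.20 CPM, were also in the libraries with adrenal transcripts, against at most 7.20 CPM in the other 18. It was at 5.98, 7.05, 4.35, 7.63 and 5.93 CPM in HFD control, at 4.46, 5.86, 5.26, 5.90 and 4.58 CPM with Aroclor 1260, at 4.53, 4.06, 3.68, 2.90 and 5.10 CPM with PCB 126 and at 6.38, 5.37, 6.61, 9.20 and 7.20 CPM with both. The mice given both lay above every mouse given PCB 126 alone, and overlapped the control. The interaction was 1.02 log2 units (SE 0.24, 95% interval 0.52 to 1.53, adjusted p = 0.284) and 0.80 over the 18 libraries (SE 0.23).

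The leading negative genes after Cyp1a1 were not AhR targets on the list. Gnat1, the transducin alpha subunit of rod photoreceptors (chr9:107674474-107679712, minus strand), was at 5.90, 3.54, 6.03, 6.89 and 4.51 CPM in HFD control and 3.76, 5.92, 9.39, 3.52 and 4.40 CPM with Aroclor 1260. It was at 6.77, 6.03, 6.95, 8.01 and 5.10 CPM with PCB 126 and 2.29, 2.51, 3.22, 2.18 and 2.20 CPM with both. The 5 mice given both were below the other 15. The interaction was -1.41 (SE 0.33, 95% interval -2.11 to -0.71, adjusted p = 0.284) and -1.49 over the 18 libraries (SE 0.36).

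Tdp1, a DNA repair phosphodiesterase, Bak1, a pro-apoptotic protein of the outer mitochondrial membrane, and Cnp, a cyclic nucleotide phosphodiesterase of myelin, shared the pattern of Gnat1, with the lowest group mean under the combined exposure. Their interactions were -0.73 (SE 0.19), -0.60 (SE 0.16) and -0.56 (SE 0.15), and over the 18 libraries -0.70, -0.50 and -0.54. With GC correction the value of Bak1 was -0.33 (SE 0.14) and that of Cnp -0.37 (SE 0.14). Eef2k, the kinase of elongation factor 2, and Trim14, an adaptor of antiviral signaling, had another pattern, with group means that were highest under PCB 126 alone, next under Aroclor 1260 alone and lower than both under the combined exposure. Eef2k was at 6.82 ± 0.74 CPM (SD, n = 5) in HFD control, 8.41 ± 0.66 with Aroclor 1260, 9.32 ± 0.35 with PCB 126 and 8.05 ± 0.62 with both. Its interaction was -0.51 (SE 0.13), and that of Trim14 -0.90 (SE 0.24). They were -0.47 and -0.88 over the 18 libraries. Bak1, Cnp and Trim14 overlap a gene on the opposite strand (Ggnbp1, Dnajc7 and Nans), and as how strand was handled in the counting is not given in the sources used here, their reads may include some of these genes.

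A similar rule, which took fewer genes in each direction, was applied to the 18 libraries. It added Slc22a28, Cemip2 and Luc7l3 among positive and Ccdc66 and Fam234b among negative genes, which were thus chosen after their values were seen. Slc22a28, of the organic anion transporter family, gave 1.13 (SE 0.32), and Luc7l3, a splicing factor, gave 0.44 (SE 0.13). Ccdc66 gave -0.76 (SE 0.19) against -0.46 (SE 0.23) over all 20. Ccdc66 overlaps Fam208a on the opposite strand.

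Genes with the clearest average effect of an exposure gave intervals of the interaction that held 0, apart from Cyp1a2, Slc46a3 and Agxt. The average effect is the mean of the effects in both strata. In the balanced design its estimate is uncorrelated with the interaction only where the groups have equal variance. Not every gene here has that, as the adrenal transcripts in 2 of the libraries show. PCB 126 had an average effect on 867 genes (5.59%), 459 higher and 408 lower, and Aroclor 1260 on 3782 (24.4%), 1835 higher and 1947 lower. By the smallest p for PCB 126 these were led by Cyp1a2, Slc46a3, Spon2, Nr1d1, Zfp280c and Fam20a. Spon2, a secreted matrix protein, fell by 1.53 log2 units on average (adjusted p = 0.000762), with an interaction of -0.57 (SE 0.39, 95% interval -1.37 to 0.24). Nr1d1, the clock repressor REV-ERBα, fell by 1.35 (adjusted p = 0.000897), with group means of 66.2, 52.1, 29.2 and 18.2 CPM in the order control, Aroclor 1260, PCB 126 and both. Its interaction was -0.33 (95% interval -1.06 to 0.40), and it overlaps Thra on the opposite strand. Fam20a, a pseudokinase of the secretory pathway, had group means of 40.8, 29.8, 26.1 and 20.6 CPM, so that both agents lowered it and the combination gave the lowest level, with an interaction of 0.12 (SE 0.16, 95% interval -0.22 to 0.45). Zfp280c, a zinc finger protein, had group means of 3.47, 4.71, 6.19 and 7.26 CPM and an interaction of -0.21 (SE 0.20).

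For Aroclor 1260 the genes with the smallest p were Acer3, Agxt, Grtp1 and Lrif1. Acer3, an alkaline ceramidase, had group means of 12.2, 16.1, 12.5 and 19.9 CPM and an interaction of 0.27 (SE 0.15). Lrif1, a nuclear receptor-interacting factor, had an interaction of -0.04 (SE 0.16) and Grtp1 of -0.12 (SE 0.17). Agxt, the peroxisomal alanine-glyoxylate aminotransferase, was the exception among them. It was at 275, 269, 277, 284 and 272 CPM in HFD control, 222, 264, 197, 218 and 191 CPM with Aroclor 1260, 195, 237, 322, 303 and 285 CPM with PCB 126 and 155, 167, 155, 125 and 142 CPM with both. The interaction was -0.49 over the 18 libraries (SE 0.18). Over all 20 it was -0.51 (SE 0.17, adjusted p = 0.301), and -0.27 with GC correction (SE 0.16).

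Among the genes called for an average effect, those that Aroclor 1260 lowered had the most negative median interaction. Of these 1947 genes, 1761 had a negative value, with a median of -0.30, and 341 had an unadjusted p under 0.05 in that direction, 120 over the 18 libraries. The share of all genes in that direction was 4.88%, and 2.67% over the 18. The median was -0.17 over the 18 libraries and -0.10 with GC correction. These genes had a median GC content of 56.2%, against 43.5% for the 1835 genes that Aroclor 1260 raised, whose median interaction was 0.06. The GC slope of the libraries thus moved with this result. Of the 459 genes raised by PCB 126 on average, 216 had a positive and 243 a negative interaction, with a median of -0.01. Of the 408 genes lowered by PCB 126, 110 had a positive and 298 a negative interaction, with a median of -0.18, and 0.0077 with GC correction.

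Among the pathway lists, 0 members were called in any list, and the lists are described by their counts and medians. The acute phase proteins had the most negative median, -0.69 over 18 genes (-0.56 over the 18 libraries), with 5 members at an unadjusted p under 0.05, all negative, and 3 over the 18 libraries. It was led by the serum amyloid A genes Saa2 and Saa1 and by Lcn2, a siderophore-binding protein of inflamed liver. Saa1 was at 163, 222, 151, 132 and 1011 CPM in HFD control, 147, 210, 4211, 220 and 184 CPM with Aroclor 1260, 4607, 1641, 110, 368 and 106 CPM with PCB 126 and 431, 192, 351, 144 and 94.8 CPM with both. A few mice were thus very high, at most 2 in a group, none of them under the combined exposure, and the groups overlapped. The interaction of Saa1 was -4.06 (SE 1.49, adjusted p = 0.321), and -1.67, at an unadjusted p over 0.05, without Aroclor replicate 3. The value of Saa2 was -4.50 (SE 1.54), and -1.75, also at an unadjusted p over 0.05, without that mouse. Saa1 and Saa2 are near-identical copies between which reads may have been split.

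Transcripts of the urea cycle and amino acid catabolism had a median interaction of -0.36 over 18 genes (-0.32 over the 18 libraries, -0.30 with GC correction), with 5 members at an unadjusted p under 0.05, all negative, and 1 over the 18 libraries, a share near that of all genes. Ass1, the argininosuccinate synthase (chr2:31470207-31520672, plus strand), was at 746, 816, 726, 790 and 920 CPM in HFD control and 736, 842, 608, 786 and 729 CPM with Aroclor 1260. It was at 916, 908, 830, 1093 and 1051 CPM with PCB 126 and 651, 621, 604, 566 and 641 CPM with both. The mice given both were below every mouse given PCB 126 alone and every control. The interaction of Ass1 was -0.53 (SE 0.14, 95% interval -0.82 to -0.23, adjusted p = 0.284), -0.51 over the 18 libraries and -0.34 with GC correction (SE 0.17). Asl, the next enzyme of the cycle, gave -0.50 (SE 0.20) and Hpd, of tyrosine breakdown, -0.48 (SE 0.20). Hpd overlaps Psmd9 on the opposite strand.

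The heat shock proteins and co-chaperones had the most positive median of the pathway lists, 0.36 over 12 genes (0.16 over the 18 libraries), with 3 members at an unadjusted p under 0.05, all positive, and 0 over the 18 libraries. These were Hspa1a, Dnajb1 and Bag3, a co-chaperone. Dnajb1 was at 19.7, 20.3, 49.5, 135 and 83.8 CPM in HFD control, 17.5 to 30.9 CPM with Aroclor 1260, 15.02 to 23.5 CPM with PCB 126 and 14.03 to 24.7 CPM with both. The control mice 3 to 5 were thus above all exposed mice, and controls 1 and 2 were not. Without control replicate 4 the interaction of Dnajb1 was 0.85, at an unadjusted p over 0.05, against 1.36 (SE 0.53). Hspa1a has a near-identical copy, Hspa1b, and overlaps Gm20481 on the opposite strand. In the same 3 controls P4ha1, a collagen prolyl hydroxylase, was at 28.6, 40.4 and 28.5 CPM, against 7.35 to 18.1 CPM in the other 17 libraries, and its interaction was 1.25 (SE 0.39). Of the 22 fibrosis and matrix genes, P4ha1 and Ccn2, a matricellular growth factor (0.99, SE 0.29), were the only 2 at an unadjusted p under 0.05. Among 22 genes of the ER stress and integrated stress response, only Ddit3, which encodes CHOP, was (1.06, SE 0.41, and 1.08 over the 18 libraries), and it overlaps Mars on the opposite strand.

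Lists of lipid metabolism had small negative medians. The value was -0.15 for 23 cholesterol synthesis genes, with 2 at an unadjusted p under 0.05 and negative, led by Mvk, and -0.27 for 14 lipid droplet proteins, with 4, all negative and led by Plin3 (-0.42, SE 0.17), Lipe (-0.64, SE 0.27) and Cidec (-0.55, SE 0.24). Over the 18 libraries the lipid droplet median was -0.14 with 0 such genes. The 25 fatty acid oxidation and PPAR alpha targets had a median of -0.02, and Cyp4a14, an omega-hydroxylase, gave 0.91 (SE 0.41) while Cpt2 and Creb3l3 gave -0.29 and -0.36. Of the 118 zinc finger genes Zfp700 to Zfp999, which are low in GC content (median 41.2%), 15 had a positive and 2 a negative value at an unadjusted p under 0.05, against 7.01% and 4.88% of all genes, and 5 and 3 over the 18 libraries. Of 84 nuclear genes of oxidative phosphorylation, 2 were negative at that level (Ndufs7 and Atp5g2) and 0 over the 18 libraries. For the 47 RNA modification enzymes and readers the median was 0.04. The share of list members at this level is to be read against the 11.9% of all genes over 20 libraries and the 4.26% over 18.

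**Figure D5:**
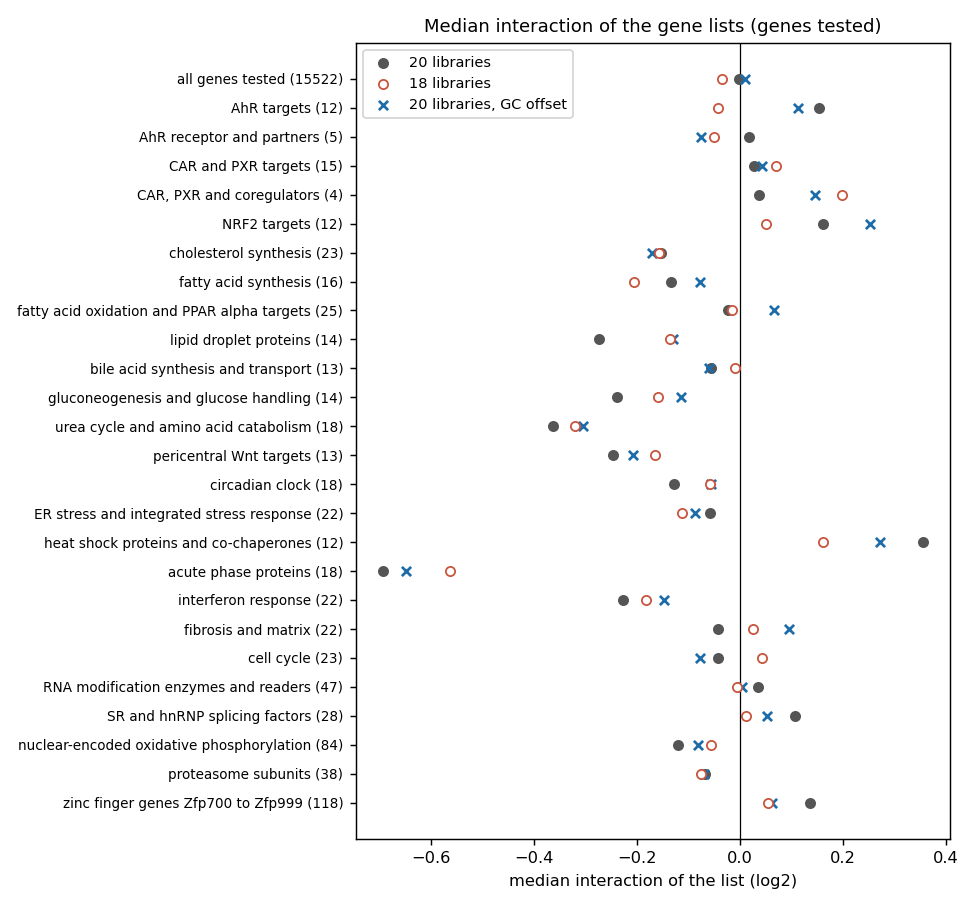
Median interaction (log2) of the pathway gene lists, cell type lists not drawn, with the number of genes tested in brackets, over 20 libraries (filled), without the 2 libraries with adrenal transcripts (open) and over 20 libraries with GC correction (crosses). Over 20 libraries the acute phase proteins have the lowest median (-0.69, then -0.56 and -0.65 in the other settings) and the heat shock proteins and co-chaperones the highest of those drawn (0.36, then 0.16 and 0.27), and all genes lie near 0.

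The markers of other liver cell types gave 0 calls for the interaction in edgeR's quasi-likelihood test. Their summed levels were 217 to 866 CPM for Kupffer cells and macrophages, 234 to 492 CPM for stellate cells and 126 to 300 CPM for sinusoidal endothelial cells over the 20 libraries, with overlapping ranges in the 4 groups. Cholangiocyte markers summed to 67.2 to 75.8 CPM in HFD control and 80.2 to 129 CPM with Aroclor 1260, without overlap (exact permutation test, two-sided, p = 0.00794, not adjusted), and to 64.2 to 124 CPM with PCB 126 and 63.9 to 132 CPM with both. This list holds Spp1, also a fibrosis and matrix gene, which alone was at 117 of the 124 CPM in PCB 126 replicate 1. The sum can thus follow that 1 gene, and whether the other markers differed was not tested. Adipocyte markers summed to 31.4 to 249 CPM and erythroid markers to 137 to 366 CPM over the 20 libraries. T and NK cell, B cell and neutrophil markers summed to 11.1 CPM at most, and pancreatic acinar markers to 0.7 CPM at most. In these bulk samples, fewer cells of a type and less RNA per cell cannot be told apart.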

How the data were processed

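Liver poly(A) RNA of 20 mice, 5 per group, was sequenced from stranded mRNA libraries on 2 NextSeq runs. The submitters' processing notes name FastQC 0.10.1, STAR 2.6, HTSeq 0.10.0 and GRCm38.p6. The authors deposited raw read counts per gene, not normalized. The strand setting of the counting and the annotation release are not given in the sources used here. Groups and replicate numbers followed the sample titles. The library name inside the title of PCB 126 replicate 2 carries another number.

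Counts were fitted with edgeR 4.0.16 (quasi-likelihood test, two-sided, TMM scaling, 1 coefficient per group, 16 residual degrees of freedom), for the 15522 genes whose counts summed to 10 or more. P-values were adjusted by Benjamini-Hochberg over all genes tested at a threshold of 0.05. CPM are relative to the TMM-scaled library size. DESeq2 1.42.0, limma 3.58.1 (voom), other scalings and filters, a replicate block, offsets for GC content and length and leaving out each library were tried as alternatives. The GC correction subtracted a spline of 6 degrees of freedom over gene GC content in each library. Leaving out both libraries with adrenal transcripts was added after the data were seen. Single genes were compared on log2 CPM by exact permutation.

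Genes were named by rule: the 8 of at least 1 CPM with the smallest interaction p in each direction, the 6 and 4 with the smallest p for the average effects of PCB 126 and Aroclor 1260, 10 exposure markers, and up to 3 members of each list described. Other named genes were chosen after their values were seen, apart from members of the receptor and target lists. The members and lists were chosen with earlier results of these data known. Labels do not say more about replicates than separate mice, and p-values measure the spread between these samples. Depth was 21836506 to 36854887 counts per library. Ribosomal protein and mitochondrially encoded genes were not analysed here. Some members of the lists are not reported here by name.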

Additional observations from a re-analysis of the deposited data

Results flagged for a closer look

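In 292 groups of 5 mice, 1 mouse stood apart from the other 4 by more than 0.71 of the group's range 43 times, for 27 genes. A rate of about 1 in 20 applies to independent groups of normal values. These genes share the same libraries, some were chosen by their values, and the distribution of CPM was not checked. The count of 43 is therefore not a measure of an excess over that rate. Of these values 19 were in HFD control replicate 4 and HFD + Aroclor 1260 + PCB 126 replicate 4. They were Scg2 at 258 and 175 CPM, Cyp11a1 at 324 and 159 CPM, Star at 601 and 669 CPM, Hao2 at 18.4 and 24.6 CPM, Prss35 at 30.05 and 26.4 CPM, Mgarp at 31.7 and 19.0 CPM, Npy at 74.7 and 18.4 CPM and Cyp1b1 at 4.39 and 6.84 CPM in the control and the combined-exposure library. Luc7l3 at 56.3 CPM and Hspa1a at 25.5 CPM in that control, and Creb3l3 at 196 CPM in that combined-exposure library, the lowest of its group, were the others. Mgarp was also apart at 0.0333 CPM in Aroclor replicate 1 and 0.0352 CPM in PCB 126 replicate 5, and Npy at 0.0819 CPM in Aroclor replicate 4 and 0.0352 CPM in PCB 126 replicate 5, all near no reads.

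Cyp1a1 was apart at 314 CPM in PCB 126 replicate 4 and at 2.62 CPM in the combined-exposure replicate 5. In PCB 126 replicate 1, Nqo1 was apart at 20.5 CPM, Cyp2c55 at 3.46 CPM, Gsta2 at 28.1 CPM and Spp1 at 117 CPM. In Aroclor replicate 3, Saa2 was apart at 3265 CPM, Saa1 at 4211 CPM, Lcn2 at 455 CPM, Zfp715 at 14.7 CPM and Cyp4a14, the lowest of its group, at 1032 CPM. In HFD control replicate 5, Saa2 was apart at 565 CPM, Saa1 at 1011 CPM, Tiparp at 18.3 CPM and Zfp976, the lowest of its group, at 2.75 CPM. The remaining values were Bak1 at 12.9 CPM in Aroclor replicate 2, Fam234b at 26.3 CPM and Bag3 at 31.7 CPM in combined-exposure replicates 1 and 2, Hspa1a at 2.96 CPM in PCB 126 replicate 2 and Cpt2 at 333 CPM in HFD control replicate 3.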

How the results depend on the processing

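The count of 0 genes called for the interaction was 1 with DESeq2, 38 with the replicate block and 38 with the GC offset and the replicate block, and 0 under every other alternative run, leave-one-out included. In both settings with the block all 38 were positive, the sign with which transcripts shared by the 2 libraries with adrenal transcripts enter the interaction. Deviations from the group mean correlated at -0.26 to 0.74 between same-numbered mice of different groups (30 pairs, median 0.050, 13 over 0.1). Between differently numbered mice they correlated at -0.53 to 0.46 (120 pairs, median -0.012, 35 over 0.1). These values do not settle whether the numbers pair samples, and the labels name no pairing. Both libraries with adrenal transcripts are replicate 4. At an unadjusted p under 0.05 the count fell from 1846 to 939 without HFD control replicate 4 and 886 without the combined-exposure replicate 4. The share of positive values among these was 58.9%, and 73.6% with upper-quartile scaling, 71.6% with the GC offset, 61.5% with RLE, 48.8% with the block, 48.4% with filterByExpr and 37.3% with voom.

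The count of PCB 126 average effect genes was 283 with the GC offset, 336 with the GC and length offset, 329 with the GC offset and block, 218 without both libraries and with the GC offset, 1808 with DESeq2, 92 at an adjusted p under 0.01, and 335 to 1663 when leaving out 1 library, the extremes without combined-exposure replicate 5 and PCB 126 replicate 3. It moved by over 1.5 times without control 1 (544), 2 (488) or 4 (1460), Aroclor 3 (431) or 5 (476), PCB 126 1 (404), 2 (397) or 5 (388), and combined 2 (548) or 4 (512). For Aroclor 1260 the counts were 528, 545, 688 and 135 in the first 4 settings, 763 at an adjusted p under 0.01, and 2490 to 4530 when leaving out 1 library, the lowest without PCB 126 replicate 3.

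Without both libraries, and then also with the GC offset, the interaction reversed for Scg2 (-0.029 and -0.042), Cyp11a1 (-3.74 and -3.69), Star (-0.14 and -0.15), Cyp1b1 (-0.19 and -0.18), Ahrr (-0.999 and -1.01), Nqo1 (0.073 and 0.074) and, in the second, Grtp1 (0.029). Ahrr also reversed with the block (-0.13), the GC offset and block (-0.20) and voom (-0.70), Nqo1 with upper-quartile scaling (0.012), and Lrif1 with that scaling (0.023) and the 1 CPM filter (0.0046). On the CPM scale Nr1d1 (3.13) and Lrif1 (0.48) reversed. Leaving out 1 library gave -0.47 to 0.51 for Ahrr, -1.13 to 0.23 for Gstm3, -0.12 to 0.0071 for Lrif1, -0.32 to 0.19 for Nqo1 and -0.67 to 0.057 for Tiparp. The cause was not tested.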
